A study of Homo sapiens with 3 samples.

Results

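The genes of the pyruvate dehydrogenase switch, 10 of the 61533 genes in the deposited tables, were described in Hep3B cells by gene symbol: the kinases PDK1, PDK2, PDK3 and PDK4, the phosphatase catalytic subunits PDP1 and PDP2, and the complex subunits PDHA1, PDHB, DLAT and PDHX. Hep3B is an established human hepatoma line, labelled wild type. Polyadenylated RNA was sequenced from 3 cultures with 1 library each. The normoxia library came from cells at 20% O2, the hypoxia library from cells at 1% O2, and the oxamate library from cells at 1% O2 with sodium oxamate, which blocks lactate dehydrogenase. All 3 cultures had 5% CO2 and serum. The series' design text gives 48 hours, clearly so only for the oxamate culture, and no oxamate dose is given in the sources used here. With 1 library per condition the spread between cultures was not measured, no test was possible, and the 95% intervals below cover counting error of the fragments only.

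The pyruvate dehydrogenase complex sits in the mitochondrial matrix and turns pyruvate into acetyl-CoA, the step that carries glycolytic carbon into the citric acid cycle. Its first enzyme, E1, is a tetramer of alpha (PDHA1) and beta (PDHB) chains that needs thiamine pyrophosphate. DLAT, the E2 core, passes the acetyl group from a lipoyl arm to coenzyme A, PDHX anchors the E3 enzyme DLD to that core, and DLD reoxidises the lipoyl arm. PDK1 to PDK4 phosphorylate the alpha chain and switch the complex off, and PDP1 and PDP2 remove the phosphates and switch it on. PDK1 is a well-known target of hypoxia-inducible factor (HIF) and PDK4 is known as a fasting gene of liver and muscle. When the complex is off, pyruvate is left for lactate dehydrogenase, the target of oxamate.

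The tables held 27412147 fragments assigned to genes in the normoxia library, 26309340 in the hypoxia library and 24826365 in the oxamate library. The share from the mitochondrial chromosome was 8.46%, 5.80% and 7.21%, and 24566, 27462 and 27505 genes had at least 1 fragment. All 10 marker genes of liver and hepatoma cells were measured, and their summed level was 31511, 20248 and 11655 CPM (fragments scaled to the size of the library) in normoxia, hypoxia and oxamate. Of 6 blood cell markers, 5 had under 50 fragments in every library (CD3E and HBB none). The other, LYZ, was 1.88-fold higher in oxamate than in hypoxia (1.73 to 2.05). The summed blood cell markers were at 37.7, 31.9 and 60.6 CPM in normoxia, hypoxia and oxamate. Of 5 endothelial markers, PECAM1 alone passed 50 fragments, at 33, 230 and 499, with KDR at 0 throughout. The summed fibroblast markers were at 15.5, 20.8 and 7.28 CPM and the summed markers of cholangiocytes and other epithelium at 1267, 834 and 992 CPM. The part that the lower liver sum, or any of these differences between the libraries, has in the values below was not tested.

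Levels are given as deposited FPKM, in which a gene's fragments are divided by its exon length and by a scaled library size. That size was 0.938, 1.06 and 1.02 times the fragments assigned in normoxia, hypoxia and oxamate. FPKM allow genes to be set side by side. Differences between libraries are ratios of fragments scaled by TMM, a method that trims the genes with extreme ratios. The rule of size asked for a ratio of at least 2 in either direction and at least 50 fragments in the library with more. In hypoxia against normoxia, 3 members were higher (PDK1, PDK3 and PDK4), 1 was lower (PDP2) and 6 were neither, where 10.8% of the 13554 genes measured were higher and 8.06% lower. In oxamate against hypoxia, 0 members were higher and 2 were lower (PDK2 and PDK4), where 5.92% of 13739 genes were higher and 5.07% lower. In oxamate against normoxia, 3 members were higher (the same kinases as in hypoxia) and 3 were lower (PDK2, PDP2 and PDHA1), where 15.4% of 13597 genes were higher and 15.3% lower. All members code for protein, and among the 11841 protein-coding genes measured in hypoxia against normoxia 961 were higher and 1007 lower. Scaling by total fragments in place of TMM gave 1775 genes higher and 751 lower in that comparison instead of 1468 and 1093. For oxamate against normoxia, scaling by the upper quartile gave 2587 higher and 1492 lower instead of 2091 and 2079. These comparisons share libraries in pairs, so none is independent of the other two. In bulk RNA, fewer cells of a kind and less RNA per cell cannot be told apart.

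**Figure D1:**
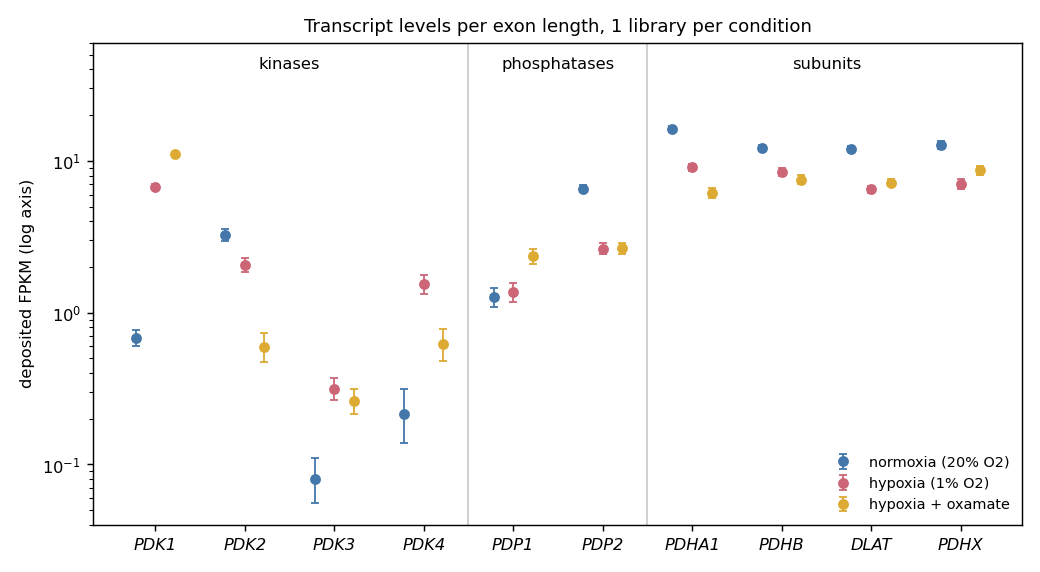
Deposited FPKM (vertical log axis) of the 10 members in each of the 3 libraries, 1 point per library, with bars for the 95% counting interval. PDK1 stands at 0.683 in normoxia and 11.1 in oxamate, PDK2 goes the other way from 3.24 to 0.593, and all 4 subunits are highest in normoxia.

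Among the kinases, PDK1 and PDK2 exchanged places as the most abundant transcript. PDK1 had 261 fragments in normoxia, 2785 in hypoxia and 4166 in oxamate, which are levels of 0.683, 6.75 and 11.1 FPKM. The level was lowest in normoxia and highest in oxamate, and the 3 counting intervals did not overlap. PDK1 was 9.97-fold higher in hypoxia than in normoxia (8.78 to 11.4), a log2 ratio of 3.32 that lay above 99.2% of the protein-coding genes measured. In oxamate it was 1.65-fold higher than in hypoxia (1.58 to 1.74), below the 2-fold rule, and 16.5-fold higher than in normoxia (14.6 to 18.8). Among protein-coding genes its FPKM moved from the 45.3rd percentile in normoxia to the 73.1st in hypoxia and the 82.1st in oxamate. The gene lies on chromosome 2, 172555373 to 172608669, plus strand, in the hg38 coordinates of the files. It shares 2.99% of its exon bases with an antisense gene, AC078883.1, which had 1, 29 and 61 fragments, far fewer than PDK1 itself.

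PDK2, the isoform found most widely across tissues, had 456 fragments in normoxia, 314 in hypoxia and 82 in oxamate, or 3.24, 2.06 and 0.593 FPKM. It was the main kinase transcript in normoxia and the order across the libraries was the reverse of PDK1's. In hypoxia it was 1.55-fold lower than in normoxia (1.34 to 1.80), which did not reach the rule. The larger step was between hypoxia and oxamate, where it was 3.46-fold lower (2.71 to 4.47). Only 0.99% of the protein-coding genes measured had a lower ratio in that comparison. Oxamate was 5.38-fold below normoxia (4.24 to 6.89). PDK2 (chromosome 17, 50094737 to 50112152, plus strand) shares 38.6% of its exon bases with SAMD14 on the opposite strand. SAMD14 had 34, 72 and 68 fragments in the same 3 libraries, so it was not lower where PDK2 was. Whether the counting used strand is not stated, and fragments from the shared bases cannot then be assigned with certainty.

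PDK3, the kinase least sensitive to inhibition by pyruvate, had the lowest FPKM of the family in every library, on the exon lengths of the tables. It had 36, 153 and 115 fragments in normoxia, hypoxia and oxamate, or 0.0802, 0.315 and 0.261 FPKM. Hypoxia was 3.97-fold above normoxia (2.75 to 5.88). Oxamate and hypoxia differed by less than counting error (ratio 0.832, 0.647 to 1.07), and oxamate was 3.30-fold above normoxia (2.25 to 4.95). The gene is on chromosome X, 24465244 to 24550466, plus strand, and shares no exon bases with another gene in GENCODE 29. Exon bases that only the longer model of the tables holds were not checked for this. Its FPKM rests on an exon length of 17456 bases in the tables against 4951 bases in GENCODE 29. Its level relative to other genes thus depends on the length used. Its ratios do not use the length, but the fragments were not recounted on the GENCODE 29 exons. How the ratios would differ there was not tested. Dividing the same fragments by the shorter GENCODE 29 length raises the level of PDK3 by construction. On that division PDK3 was not the lowest kinase in normoxia or oxamate, where its share of the kinase sum lay above that of PDK4. The counting intervals of these shares overlap in both libraries.

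PDK4, the kinase induced by fasting and fatty acids in liver, had 25 fragments in normoxia, 195 in hypoxia and 71 in oxamate, or 0.214, 1.54 and 0.618 FPKM. The hypoxia library stood above both others. PDK4 was 7.29-fold higher in hypoxia than in normoxia (4.79 to 11.5) and 2.48-fold lower in oxamate than in hypoxia (1.88 to 3.31). Oxamate remained 2.94-fold above normoxia (1.84 to 4.84). It was the only member that passed the rule upward with hypoxia and downward with oxamate. PDK4 is on chromosome 7, 95583499 to 95596516, minus strand, and shares no exon bases.

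**Figure D2:**
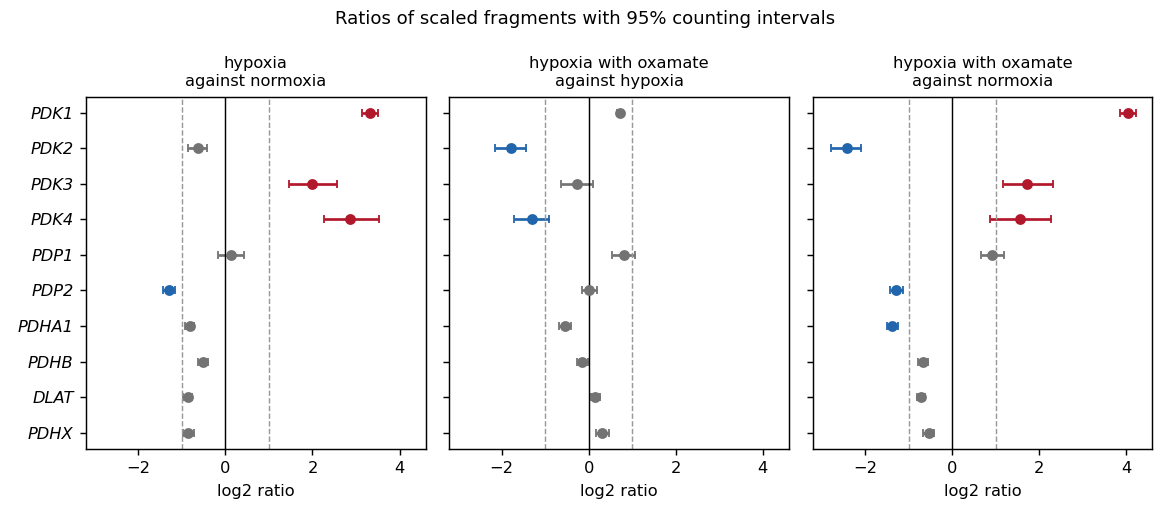
Log2 ratio of TMM-scaled fragments (horizontal axis) for each member in the 3 comparisons, with bars for the 95% counting interval, dashed lines at 2-fold, red for members counted as higher and blue for lower. In the left panel PDK1, PDK4 and PDK3 lie right of the dashed line at 3.32, 2.87 and 1.99, and in the middle panel PDK2 and PDK4 lie left of it at -1.79 and -1.31.

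The sequences before the transcript starts are shown because 3 kinases that were higher in hypoxia differ in whether they carry the core of the hypoxia response element, the DNA element that HIF binds. Promoter sequences from RefSeq (GRCh38.p14) were searched for 9 of the 10 members, in 13 windows of 250 bases upstream of a start. The promoter of PDP1 was not searched. The letters ACGTG and GCGTG were searched on both strands. At least 1 match was found in 43.2% of all 35116 windows of that length, so a match is common. In the lines below, capitals mark the matches as read on the gene's strand (CACGT and CACGC are the same cores on the other strand). The E-box CACGTG, which 6.34% of all windows hold, overlaps the core and is counted as matches on both strands.
PDK1, chr2:172556060-172556089, plus strand: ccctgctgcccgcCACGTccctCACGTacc
PDK3, chrX:24465172-24465201, plus strand: gcgcgcgcggccGCGTGcccctcgcgctcc
PDK3, chrX:24465213-24465242, plus strand: cgcgcgccgcgtACGTGcagcaaccgactc
PDK2, chr17:50095210-50095239, plus strand: cccgggggaagcCACGTGccggggcggaag
PDP2, chr16:66880296-66880325, plus strand: cCACGTagctggcgatctcaggCACGTGac
PDHB, chr3:58434045-58434074, minus strand: accaggCACGTGtgcccaGCGTGcaccccg
PDK4, chr7:95596517-95596766, minus strand, the whole window: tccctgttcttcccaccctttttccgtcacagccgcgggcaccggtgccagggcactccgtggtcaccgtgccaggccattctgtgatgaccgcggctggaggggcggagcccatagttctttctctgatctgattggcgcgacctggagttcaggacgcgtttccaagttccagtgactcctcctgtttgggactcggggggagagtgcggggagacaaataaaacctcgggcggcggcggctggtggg

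The PDK1 stretch ends 1 base before a RefSeq start and holds 2 cores, at -17 and -8 from that start. In GENCODE 29 it lies in a non-coding exon part of some PDK1 transcripts. The other PDK1 window, upstream of a second RefSeq start, had none. PDK3 had 2 matches, at -102 upstream of every annotated transcript and at -61 in a non-coding exon part. The PDK4 window, upstream of the whole gene, held neither core, nor the E-box, nor the nuclear receptor letters AAGGTCA (in 3.44% of all windows), nor the FOXO letters TGTTTAC and TGTTTGC (6.09%). Members that were not higher in hypoxia also carried cores. PDP2, the member that was lower, had 3 matches in its window and PDHB, which passed in neither direction, had 6, and 7.76% of all windows had 3 or more. PDK2 had 3 in 1 of its 3 windows, where GENCODE 29 has an intron. DLAT and PDHA1 had 3 matches each and PDHX 2 in 1 of its 2 windows. Among the 9 members searched, the count of cores in these windows did not follow the direction of the ratios. Sequence outside the windows was not searched, and whether any of these matches bears on the ratios was not tested.

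The kinases were next added up per length. Their summed level was 4.22 FPKM in normoxia (3.90 to 4.54), 10.7 in hypoxia (10.3 to 11.1) and 12.6 in oxamate (12.2 to 13.0). In normoxia PDK2 made up 76.8% of this sum (74.0% to 79.5%) and PDK1 16.2% (14.3% to 18.3%). In hypoxia PDK1 made up 63.2% (61.1% to 65.3%), PDK2 19.3% (17.6% to 21.2%) and PDK4 14.5% (12.8% to 16.4%). The pool had turned from mainly PDK2 to mainly PDK1. With oxamate PDK1 reached 88.3% (86.8% to 89.7%), while PDK2 and PDK4 had shares of 4.72% and 4.92%. PDK3 made up 1.90%, 2.95% and 2.07% of the sum in normoxia, hypoxia and oxamate. Dividing the same fragments, not recounted, by the exon lengths of GENCODE 29 gave 6.40%, 9.70% and 6.96%. The level of PDK1 over that of PDK2 was 0.211 in normoxia, 3.27 in hypoxia and 18.7 in oxamate, and the intervals of these ratios did not overlap.

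**Figure D3:**
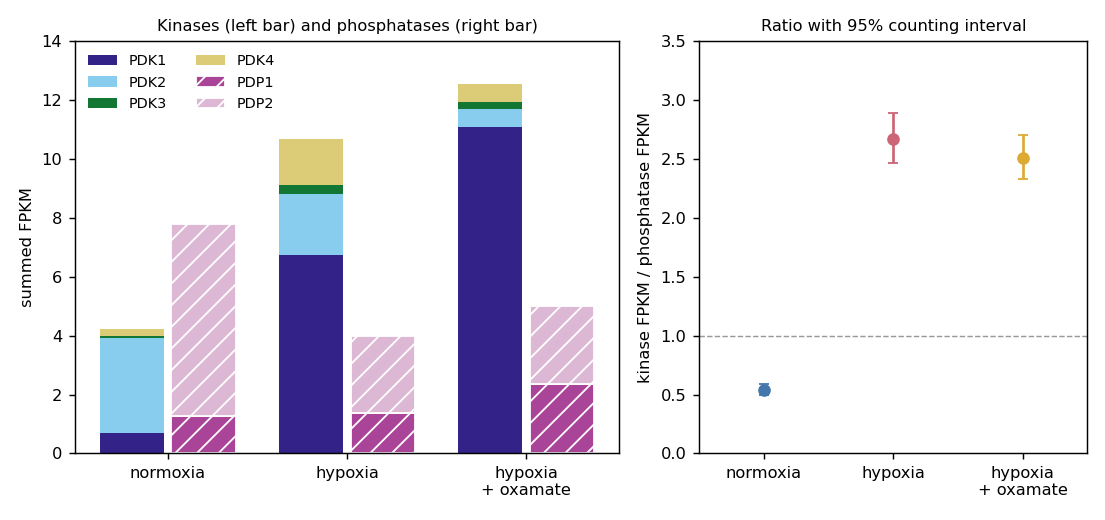
Left, summed FPKM (vertical axis) of the 4 kinases (solid bars) and 2 phosphatases (hatched bars) in each library, stacked by gene. Right, the kinase sum over the phosphatase sum with its 95% counting interval and a dashed line at 1, which lies below the line in normoxia (0.540) and above it in hypoxia (2.67) and oxamate (2.51).

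The phosphatases behaved differently from each other. PDP2, which has no need of calcium for activity, had 1384 fragments in normoxia, 603 in hypoxia and 551 in oxamate, or 6.55, 2.64 and 2.65 FPKM. The normoxia library stood apart and the other two overlapped. PDP2 was 2.46-fold lower in hypoxia than in normoxia (2.23 to 2.71), with a ratio of 1.01 between oxamate and hypoxia (0.899 to 1.14). In oxamate against normoxia it was 2.43-fold lower (2.20 to 2.69). The gene is on chromosome 16, 66878589 to 66895754, plus strand, and shares no exon bases.

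PDP1, the calcium-stimulated isoform, had 182, 212 and 333 fragments in normoxia, hypoxia and oxamate, or 1.26, 1.36 and 2.35 FPKM. Its oxamate library was the highest and the normoxia and hypoxia libraries overlapped. The ratio of hypoxia to normoxia was 1.09 (0.889 to 1.33). Oxamate was 1.74-fold above hypoxia (1.46 to 2.07) and 1.89-fold above normoxia (1.57 to 2.28), both below the rule, although the upper bounds reach past 2. PDP1 is on chromosome 8, 93857807 to 93926068, plus strand. Together the phosphatases had 7.81 FPKM in normoxia (7.42 to 8.20), 4.0 in hypoxia (3.72 to 4.28) and 5.00 in oxamate (4.67 to 5.34), and the share of PDP1 in that sum was 16.2%, 34.0% and 47.0%.

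Set against each other per length, kinase transcripts were fewer than phosphatase transcripts in normoxia, at a ratio of 0.540 (0.493 to 0.591). They outnumbered them in hypoxia at 2.67 (2.46 to 2.89) and in oxamate at 2.51 (2.33 to 2.71), intervals that overlap each other and not that of normoxia. Fragments not divided by length gave 4.23 (3.92 to 4.56) in hypoxia and 5.02 (4.67 to 5.39) in oxamate, intervals that do not overlap, and 0.497 in normoxia. PDK1 made up more of the kinase sum, and PDP1 more of the phosphatase sum, in oxamate than in hypoxia. Transcript ratios say nothing of enzyme activity or of phosphorylation, which were not measured here.

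The 4 complex subunits were each highest in normoxia, and none passed the 2-fold rule in hypoxia against normoxia. The summed level of the subunits was 53.1 FPKM in normoxia (51.8 to 54.3), 31.0 in hypoxia and 29.5 in oxamate (28.5 to 30.5). PDHA1, the E1 alpha chain that carries the phosphorylation sites, had 1874, 1134 and 699 fragments, or 16.2, 9.05 and 6.13 FPKM in normoxia, hypoxia and oxamate. Each library lay below the one before, with no overlap of the intervals. PDHA1 was 1.77-fold lower in hypoxia than in normoxia (1.64 to 1.90), 1.47-fold lower in oxamate than in hypoxia (1.33 to 1.61), and, past the rule, 2.59-fold lower in oxamate than in normoxia (2.38 to 2.83). It lies on chromosome X, 19343893 to 19361718, plus strand, and shares 21.3% of its exon bases with MAP3K15 on the opposite strand, which had 167, 374 and 395 fragments. PDHA2, the testis copy of the alpha chain, had 0 fragments in all 3 libraries.

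PDHB, the E1 beta chain, had 1474, 1103 and 898 fragments, or 12.1, 8.41 and 7.53 FPKM. Between hypoxia and normoxia it had the smallest difference of the 4 subunits, 1.43-fold lower in hypoxia (1.32 to 1.55), and it was 1.11-fold lower in oxamate than in hypoxia (1.02 to 1.21). Oxamate was 1.59-fold below normoxia (1.46 to 1.73). PDHB is on chromosome 3, 58427630 to 58433857, minus strand, with 7.63% of exon bases shared with the antisense gene AC135507.1, which had 2, 0 and 0 fragments.

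DLAT, the acetyltransferase core, had 2328, 1366 and 1372 fragments, or 12.0, 6.51 and 7.19 FPKM. Normoxia was highest and the other two were close. The hypoxia library was 1.82-fold below normoxia (1.70 to 1.95), and oxamate was 1.11-fold above hypoxia (1.03 to 1.20) and 1.64-fold below normoxia (1.53 to 1.76). DLAT lies on chromosome 11, 112025408 to 112064404, plus strand, and shares 4.39% of exon bases with PIH1D2 (41, 50 and 26 fragments).

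PDHX, the E3-binding protein, had 1220, 725 and 813 fragments, or 12.7, 7.01 and 8.64 FPKM. It followed DLAT: 1.80-fold lower in hypoxia than in normoxia (1.64 to 1.98), then 1.24-fold higher in oxamate than in hypoxia (1.12 to 1.37) and 1.45-fold lower than normoxia (1.33 to 1.59). PDHX is also on chromosome 11, 34915829 to 35020591, plus strand, and shares 6.89% of its exon bases with APIP on the opposite strand. APIP had 339, 144 and 109 fragments.

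The subunits were next set against each other per length. PDHA1 over PDHB, the 2 chains of the E1 tetramer, was 1.33 in normoxia (1.24 to 1.42), 1.08 in hypoxia (0.991 to 1.17) and 0.815 in oxamate (0.738 to 0.900), with no overlap. DLAT over the E1 sum was 0.423 in normoxia (0.402 to 0.446), 0.373 in hypoxia (0.348 to 0.399) and 0.526 in oxamate (0.489 to 0.565). PDHX over the E1 sum was 0.45 in normoxia, 0.401 in hypoxia and 0.633 in oxamate. PDHX over DLAT, both members of the core, was 1.06, 1.08 and 1.20, and the 3 intervals overlapped. The exon length of DLAT differs between the annotations (7550 bases in the tables, 4831 in GENCODE 29). With the same fragments, not recounted, divided by the GENCODE 29 lengths, PDHX over DLAT was 0.673, 0.682 and 0.761. DLAT over the E1 sum was then 0.661, 0.582 and 0.821. The kinase sum over PDHA1, the target of the kinases, was 0.261 in normoxia (0.239 to 0.285), 1.18 in hypoxia (1.10 to 1.26) and 2.05 in oxamate (1.89 to 2.22).

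The median log2 ratio of the 4 subunits was -0.83 in hypoxia against normoxia, beside -0.11 over all 13554 genes measured, and 0.00 in oxamate against hypoxia, beside -0.01. The second median lies between subunits that went both ways, from -0.55 for PDHA1 to 0.31 for PDHX. The 14 genes of mitochondrial mass and import had medians of -0.59 and -0.01. Of those 14, 2 were lower in hypoxia (HSPD1, a matrix chaperonin, 2.79-fold, and TIMM44, an import motor subunit, 2.26-fold), none was higher, and none passed the rule in oxamate against hypoxia. The 4 kinases had medians of 2.41 and -0.78 in these comparisons.

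DLD, the E3 enzyme shared with sister complexes, was at 25.1, 15.5 and 12.6 FPKM in normoxia, hypoxia and oxamate. It was 1.61-fold lower in hypoxia than in normoxia (1.52 to 1.70) and 1.22-fold lower in oxamate than in hypoxia. PDPR, the regulatory subunit that PDP1 binds, was at 6.07, 6.63 and 6.79 FPKM, with ratios of 1.10 and 1.03; it has near-identical copies that the counting could split. DLD was thus lower in hypoxia by a size like that of the subunits, and PDPR was not lower.

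Pyruvate enters the matrix through a carrier of 2 proteins, and both genes were lower in hypoxia. MPC1 was at 46.4, 12.4 and 16.5 FPKM in normoxia, hypoxia and oxamate, and MPC2 at 59.0, 25.4 and 17.0 FPKM. In oxamate against hypoxia MPC1 had a ratio of 1.34 (1.20 to 1.51) and MPC2 of 0.674 (0.625 to 0.726), so the carrier genes parted while neither passed the rule. Against normoxia, MPC2 was 2.30-fold lower in hypoxia (2.18 to 2.43) and 3.42-fold lower in oxamate (3.20 to 3.65).

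Of the other enzymes that make or use pyruvate, 10 of 15 were measured. In hypoxia against normoxia 2 were higher, LDHA (3.48-fold), which makes lactate, and PKM (2.5-fold), the pyruvate kinase of most tissues, and 4 were lower, among them PKLR, the liver pyruvate kinase (4.77-fold), and ME2, a mitochondrial malic enzyme (3.08-fold). LDHB, the other main lactate dehydrogenase subunit, had 0, 0 and 7 fragments. In oxamate against hypoxia 2 were higher, ME1 (3.89-fold), the cytosolic malic enzyme, and GPT2 (2.34-fold), a mitochondrial alanine aminotransferase, and none was lower. ME1 was also among the 4 genes lower in hypoxia than in normoxia, and it passed in neither direction in oxamate against normoxia. LDHA itself, the target of oxamate, had a ratio of 1.15 (1.14 to 1.17).

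The genes that use acetyl-CoA in the matrix or export citrate had 9 of 10 members measured. In hypoxia against normoxia 0 were higher and 2 lower, IDH3A of the citric acid cycle (2.31-fold) and ACSS2, a cytosolic enzyme that makes acetyl-CoA from acetate (2.76-fold). Between oxamate and hypoxia ACSS2 was 2.43-fold higher and no other member passed. The list medians were -0.64 and -0.14.

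A list of 32 HIF target genes without the kinases gave a yardstick for PDK1, PDK3 and PDK4. In hypoxia against normoxia 25 of 31 measured were higher, 0 were lower and the median log2 ratio was 1.63. In oxamate against hypoxia 10 of 31 were higher, 0 lower, and the median was 0.80. PDK1 ranked 5th in the first comparison and 17th in the second among 34 genes (the measured list and the 3 kinases), PDK4 ranked 9th and 34th, the last place, and PDK3 15th and 31st. EPO, the erythropoietin gene for which Hep3B is a classical model, was the nearest to PDK4 in this: 8.01-fold higher in hypoxia and 1.75-fold lower in oxamate. ENO2 and PPFIA4 had the largest oxamate ratios of the list, 4.86 and 4.85.

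Of 25 genes for known regulators of the kinase genes, 3 were higher and 4 lower in hypoxia against normoxia, with a median of -0.01. Of all genes measured in that comparison, 10.8% were higher and 8.06% lower. Higher were EGLN3, an oxygen sensor and itself a HIF target (5.82-fold), PPARG (3.66-fold) and FOXO4. Lower were PPARGC1B (18.9-fold, 9.71 to 42.1), KLF15 (8.22-fold), MYC and ESRRG. PPARGC1B had under 50 fragments in both the hypoxia and the oxamate library. Between oxamate and hypoxia none of 24 measured passed in either direction, beside 5.92% higher and 5.07% lower of all genes measured. Whether these genes bear on the ratios of PDK2 and PDK4 was not tested. The HIF subunit genes HIF1A and EPAS1 had ratios of 0.863 and 1.41 in hypoxia against normoxia and of 1.59 and 1.14 in oxamate against hypoxia.

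PDK4 is known as a target of PPAR, FOXO and glucocorticoid receptor, and 18 liver genes of these pathways were set beside it. In hypoxia against normoxia 5 of 14 measured were higher, led by IGFBP1 (52.8-fold) and ANGPTL4 (45.2-fold). Between oxamate and hypoxia FABP1, a fatty acid binding protein, was lower (4.63-fold), as PDK4 was, and 2 of 15 measured were higher, TSC22D3 (5.27-fold) and TAT (2.51-fold). The list did not move as 1 group, and its medians were 0.35 and -0.29.

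The 5 protein-coding genes nearest to PDK1 over the 2 log2 ratios, of 11205 candidates with at least 100 fragments in the highest library, were TNXB, C4orf47, ADM, BNIP3L and MYOF, at Euclidean distances of 0.0590 to 0.341. ADM and BNIP3L are on the HIF list. Nearest to PDK4 were MMP19, DSE, TBC1D10C, OAS1 and SPOCK3, at distances of 0.0412 to 0.253. DSE, for example, had 525, 3751 and 1409 fragments in normoxia, hypoxia and oxamate. These are likenesses over 3 libraries only, and the hypoxia library enters both ratios.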

How the data were processed

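The authors deposited 1 table of FPKM per library, with gene coordinates and exon lengths, for Hep3B cells in 3 conditions; the values were taken to be FPKM from their scale. Per the submitters' processing notes, featureCounts 1.5.0-p3, HISAT2 2.0.5, edgeR 3.22.5, StringTie 1.3.3b and hg38 were named, with no role or order given; strand use is not stated in the sources used here. FPKM times exon length gave whole fragments within 0.01 for every value of the deposited tables, and these fragments were scaled by TMM (trim 30% of ratios and 5% of abundances, genes with at least 10 fragments in all, factors 0.943, 1.05 and 1.01), computed with pandas 2.3.3, scipy 1.17.1 and numpy 2.4.6 under Python 3.11.15. Ratios carry 95% exact conditional binomial (Clopper-Pearson) intervals, FPKM Poisson intervals and sums or quotients of FPKM delta-method intervals, all for counting error only. A count of 0 allows up to 3 fragments, or 0.116, 0.108 and 0.120 CPM. List medians add a prior count of 0.5. The ratio and interval code was tested on simulated data. All 186 symbols of members and lists were found, and 58312 of 61533 genes matched GENCODE 29. Shared exon bases were computed on GENCODE 29 exons only.

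Named genes are all members, up to 2 genes with the highest and 2 with the lowest ratio of each list and comparison (50 fragments or more), every gene of lists of 5 or fewer, except a few that are not reported here, and the 5 genes most like PDK1 and PDK4; LDHB, HIF1A, EPAS1, FOXO4 and the overlapping genes, and other list genes outside that rule, were named after their values were seen. Members and lists were chosen with earlier results of these data known. Alternatives were other scalings, filters, prior counts, length and GC corrections and size rules.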

Additional observations from a re-analysis of the deposited data

How the results depend on the processing

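Across 10 alternatives of scaling, filter, prior count and correction for length or GC, 29 of the 30 member ratios kept 1 sign throughout; the exception was PDP2 in oxamate against hypoxia, at a log2 ratio from -0.05 to 0.06. Of the 300 alternative values, 275 stayed within the counting interval and 25 did not. Scaling by median of ratios and the deposited FPKM as they stand had the same factors. They are not separate alternatives, although the 10 and the 300 count both. Scaling moved the median log2 ratio of all genes in hypoxia against normoxia from -0.11 to 0.04 (total fragments and upper quartile), and the genes counted from 1468 higher and 1093 lower to 1775 and 751 (total fragments), 1769 and 758 (upper quartile) or, with factors from protein-coding genes of 50 fragments or more, 1649 and 840. For oxamate against normoxia the upper quartile gave 2587 higher and 1492 lower, beside 2091 and 2079. PDP1 in oxamate against normoxia passed the 2-fold rule under total fragments, upper quartile and the protein-coding filter, which made 4 members higher. Of all genes measured, 17.1%, 19.0% and 17.6% were higher under these settings. With a ratio of 1.5, 5 members were lower in hypoxia against normoxia (PDK2, PDP2, PDHA1, DLAT and PDHX), beside 21.9% of all genes measured. In oxamate against normoxia 5 members were lower, beside 28.7% of all genes. In oxamate against hypoxia 2 members were higher (PDK1 and PDP1), beside 13.7% of all genes. With the whole interval beyond 2-fold, 1 member was lower in oxamate against hypoxia (PDK2), beside 2.23% of all genes, and PDK4 no longer counted. PDK4 was lost in oxamate against normoxia too, where 11.3% of all genes were higher. Fewer or more genes passed these rules by construction: in hypoxia against normoxia 2530 higher and 2964 lower at a ratio of 1.5, 944 and 665 for the whole interval, and 3618 and 1772 at 10 fragments.

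Without division by length, PDK1 made up 33.5%, 80.8% and 94.0%, PDK2 58.6%, 9.11% and 1.85%, PDK3 4.63%, 4.44% and 2.59% and PDK4 3.21%, 5.66% and 1.60% of the kinases in normoxia, hypoxia and oxamate. Kinases over phosphatases were then 4.23 in hypoxia and 5.02 in oxamate and no longer overlapped. DLAT over the E1 sum was 0.695, 0.611 and 0.859, PDHX over the E1 sum 0.364, 0.324 and 0.509, and PDHX over DLAT 0.524, 0.531 and 0.593. The next values divide the same fragments, not recounted, by GENCODE 29 exon lengths, an alternative chosen after seeing the data. PDK2 was 73.3% in normoxia, and PDK1 58.8% in hypoxia and 83.9% in oxamate. PDK3 was 6.40%, 9.70% and 6.96% in normoxia, hypoxia and oxamate. Kinases over phosphatases were 2.90 in hypoxia. DLAT over the E1 sum was 0.661, 0.582 and 0.821, and PDHX over DLAT 0.673, 0.682 and 0.761. No paired analysis was possible because each condition has 1 library. Depth limits PDK3 and PDK4 most, with 36 and 25 fragments in normoxia.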

Other observations

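The sister complexes, which share DLD and the same chemistry but use other 2-oxoacids, were measured beside the pyruvate complex. Of 8 genes measured out of 9, 0 were higher and 1 was lower in hypoxia against normoxia, with a median log2 ratio of -0.14. OGDH and DLST, of the 2-oxoglutarate complex in the citric acid cycle, had ratios of 0.900 and 0.909. The lower gene was PPM1K, the phosphatase that switches on the branched-chain complex, at 534, 171 and 756 fragments in normoxia, hypoxia and oxamate. It was 3.34-fold lower in hypoxia than in normoxia (2.81 to 3.99) and 4.89-fold higher in oxamate than in hypoxia (4.14 to 5.81). Its opponent, the kinase gene BCKDK, had ratios of 0.678 and 1.01. BCKDHB, the E1 beta chain of that complex, was 2.83-fold lower in oxamate than in hypoxia (2.27 to 3.54), as was OGDHL (2.13-fold), and DBT, its E2 core, had a ratio of 0.574. Whether the sister genes differ from the members was not tested.

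The lipoyl arm of DLAT and PDHX is built by a pathway of which 14 of 16 genes were measured. GCSH, the lipoyl carrier protein, had 485, 224 and 85 fragments in normoxia, hypoxia and oxamate, and was 2.32-fold lower in hypoxia than in normoxia and 2.38-fold lower in oxamate than in hypoxia. BOLA3, which helps to insert iron-sulfur clusters, was 2.5-fold lower in hypoxia than in normoxia. None was higher in either comparison, and the medians were -0.44 and -0.28. In oxamate against normoxia 4 of 14 were lower, adding LIAS, the lipoyl synthase (2.19-fold), and MECR, a reductase of mitochondrial fatty acid synthesis (3.40-fold). Of the thiamine transporters of the cell surface, SLC19A3 was 2.27-fold lower in hypoxia than in normoxia, and SLC19A2 had a ratio of 0.669.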
